A study of Rattus norvegicus with 12 samples.

Results

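Transcripts of 8 antioxidant enzyme genes were followed in rat whole blood: the peroxiredoxins Prdx1, Prdx2 and Prdx6, catalase (Cat), the glutathione peroxidases Gpx1 and Gpx4, and the superoxide dismutases Sod1 and Sod2. The genes were chosen by symbol, and all 8 were found among the 17337 genes of the count tables. The low-count filter kept 2781 genes, 5 of them from this set: Prdx2, Cat, Gpx1, Gpx4 and Sod2. Prdx1, Prdx6 and Sod1 did not pass it and are described by their counts.

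The study compared 2 inbred strains of male rat, Wistar Kyoto (WKY) and Fischer 344 (F344), and asked how chronic restraint stress (CRS) acts on each. The 4 groups of 3 libraries each were F344 after CRS, F344 without stress (NS), WKY after CRS and WKY without stress. All rats were 70 to 90 days old when first tested in contextual fear conditioning, and then spent 4 weeks in the home cage. CRS rats were next restrained for 2 hours a day over 2 weeks in breathable bags and weighed before and after, while NS rats stayed undisturbed. Every rat, stressed or not, then had a second fear conditioning test and was killed by decapitation 24 hours after its second day, so the NS groups also carry both rounds of fear testing. Whether the libraries stem from different rats is not in the labels. The p-values therefore rest on library-to-library spread, which may be technical.

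Superoxide dismutases turn superoxide into hydrogen peroxide, Sod1 in the cytosol and Sod2 in the mitochondrion. Catalase, the peroxiredoxins and the glutathione peroxidases then remove peroxides, Prdx1 and Prdx2 with electrons from thioredoxin and the glutathione peroxidases with electrons from glutathione. Red cells carry oxygen on iron and lose their nucleus and mitochondria as they mature, and they depend on Prdx2, catalase and Gpx1, whose transcripts remain for a time in reticulocytes, the youngest circulating red cells. Sod2 needs mitochondria and is known as a gene that inflammatory signals induce in white blood cells.

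Gene rows received 1691956 to 3846263 counts per library, but 3 features took 88.9% to 94.6% of them, and 90796 to 419789 counts remained for all other genes. Reads recorded as ambiguous made up 78.3% to 83.6% of all counts in a library. What made a read ambiguous is not stated, so genes can be undercounted, and which ones cannot be told. Levels are CPM, counts scaled to a common library size by TMM, a method that corrects for a few very abundant features, and 1 count was worth 0.202 to 1.144 CPM. NS F344 replicates 2 and 3 stood apart in their scaling factors, 0.626 and 0.519 against 0.821 to 1.53 in the other 10 libraries. Replicate 3 was also the shallowest library, while replicate 2, with 195564 counts outside the 3 features, was deeper than NS WKY replicate 3, with 170507. For the tested antioxidant genes, fold changes that changed sign without these 2 libraries are given with and without them. Blood identity was visible in the red cell markers: 16 of the 18 listed genes were in the tables, and 14 passed the filter. The summed level of the 16 genes ran from 1009 to 2164 CPM.

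Prdx2, the abundant red cell peroxiredoxin, had 3639 counts over the 12 libraries, more than any of the other 7 genes, although counts of different genes also depend on their length. In F344 it stood at 90.2, 116 and 98.2 CPM after CRS and at 69.8, 111 and 60.6 CPM without stress. In WKY it stood at 104, 148 and 74.3 CPM after CRS and at 83.1, 112 and 78.2 CPM without stress. The groups overlapped in both strains, with CRS WKY replicate 2 the highest library and NS F344 replicate 3 the lowest. Averaged over strains the log2 fold change after CRS was 0.29 (SE 0.214, 95% interval -0.14 to 0.72, edgeR quasi-likelihood test, adjusted p = 0.906), so Prdx2 did not pass. Between strains the averaged log2 difference was 0.14 (95% interval -0.29 to 0.57, edgeR adjusted p = 0.843). Both intervals exclude a doubling, which is 1 on the log2 scale. Within F344 the CRS value was 0.33, or 0.60 without NS F344 replicates 2 and 3, and the averaged CRS and strain values without them were 0.44 and 0.27 (edgeR adjusted p = 0.909 and 0.741).

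Cat, which splits hydrogen peroxide into water and oxygen, varied little within each WKY group. It stood at 72.3, 81.6 and 82.1 CPM in CRS WKY and at 55.7, 59.3 and 62.7 CPM in NS WKY, so the 3 stressed libraries all lay above the 3 unstressed ones. The log2 fold change was 0.41 (SE 0.301, 95% interval -0.20 to 1.02, edgeR adjusted p = 0.975), which did not pass. The CRS libraries all lay above the NS libraries for 4.93% of tested genes in that comparison, so 1 such gene among 5 says little about the set. Summed globin genes, mostly Hbb, separated the same way, at 34958 to 37710 CPM in CRS WKY and 20150 to 26105 CPM in NS WKY. Red cell marker sums overlapped, at 1285 to 1912 CPM and 1243 to 1380 CPM. The part of either sum in the Cat values was not tested. Against F344 after CRS, the 3 WKY libraries also lay above all 3 F344 libraries for Cat (log2 0.51, SE 0.300, edgeR adjusted p = 0.545), which 9.64% of tested genes showed. With counts outside the 3 abundant features as the library size and no TMM, a scaling that shifted the median of all genes to -0.32, the CRS value of Cat in WKY was log2 0.05.

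In F344 the Cat values were 50.3, 51.9 and 63.1 CPM after CRS, against 37.0, 95.02 and 94.94 CPM without stress. NS replicates 2 and 3 were the highest of all 12 libraries and NS replicate 1 the lowest, so the unstressed group spanned the whole range. The log2 fold change of -0.43 (SE 0.306, edgeR adjusted p = 0.974) became 0.64 (SE 0.352, adjusted p = 0.997) without NS replicates 2 and 3, which leaves 1 library in the group, assumed to vary like the others. Summed red cell markers stood at 1009 CPM in NS F344 replicate 1 and at 2164 and 1855 CPM in replicates 2 and 3, against 1408 to 1533 CPM in CRS F344. Thus the library with the lowest Cat level also had the lowest red cell sum, and their part in the Cat values was not tested. In bulk blood, fewer red cells and less RNA per red cell cannot be told apart.

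The CRS response of Cat, WKY minus F344, differed by log2 0.84 (SE 0.429, 95% interval -0.03 to 1.71). The unadjusted edgeR p was 0.0589 and the adjusted p 0.993, so the difference did not pass. Without NS F344 replicates 2 and 3 it was -0.22 (edgeR adjusted p = 0.998). Averaged over strains the CRS value of Cat was -0.01, or 0.54 without them (edgeR adjusted p = 0.995 and 0.909), and the averaged strain difference was 0.09, or 0.62 without them (adjusted p = 0.899 and 0.207). When CRS responses were compared as WKY minus F344, 3.81% of tested genes had an unadjusted edgeR p under 0.05. Adjusted p-values under 0.05 were found there for 0 genes, by edgeR and by DESeq2.

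Gpx1, the cytosolic glutathione peroxidase, is a selenium enzyme of red cells. It stood at 97.6, 120 and 64.1 CPM in CRS WKY, against 49.5, 73.4 and 44.0 CPM in CRS F344. One WKY library, replicate 3, fell inside the F344 range, and the other WKY libraries lay above it. The log2 difference between strains after CRS was 0.76 (SE 0.340, 95% interval 0.07 to 1.44), with an unadjusted edgeR p of 0.0324 and an adjusted p of 0.384. Of all tested genes 11% had an unadjusted p under 0.05 in this comparison and 1.29% passed the adjusted threshold, among them 0 of the 5 antioxidant genes.

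Without stress Gpx1 did not separate the strains, at 58.5, 98.6 and 65.0 CPM in NS WKY and 38.6, 127 and 67.5 CPM in NS F344. The NS F344 libraries held both the lowest and the highest Gpx1 level of the series. Their log2 difference, WKY over F344, was -0.06 (95% interval -0.76 to 0.63, edgeR adjusted p = 0.972), and 0 of the 5 genes passed where 0.683% of all tested genes did. It became 0.99 (edgeR adjusted p = 0.764) without NS F344 replicates 2 and 3, and averaged over treatments the strain difference moved to 0.87 (edgeR adjusted p = 0.11), against 0.35 (adjusted p = 0.560) with them. CRS against NS gave log2 -0.48 in F344 and 0.34 in WKY (edgeR adjusted p = 0.974 and 0.975), and without both libraries the F344 value was 0.59 (adjusted p = 0.997). The averaged CRS value was -0.07, or 0.47 without both (edgeR adjusted p = 0.991 and 0.909).

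**Figure D1:**
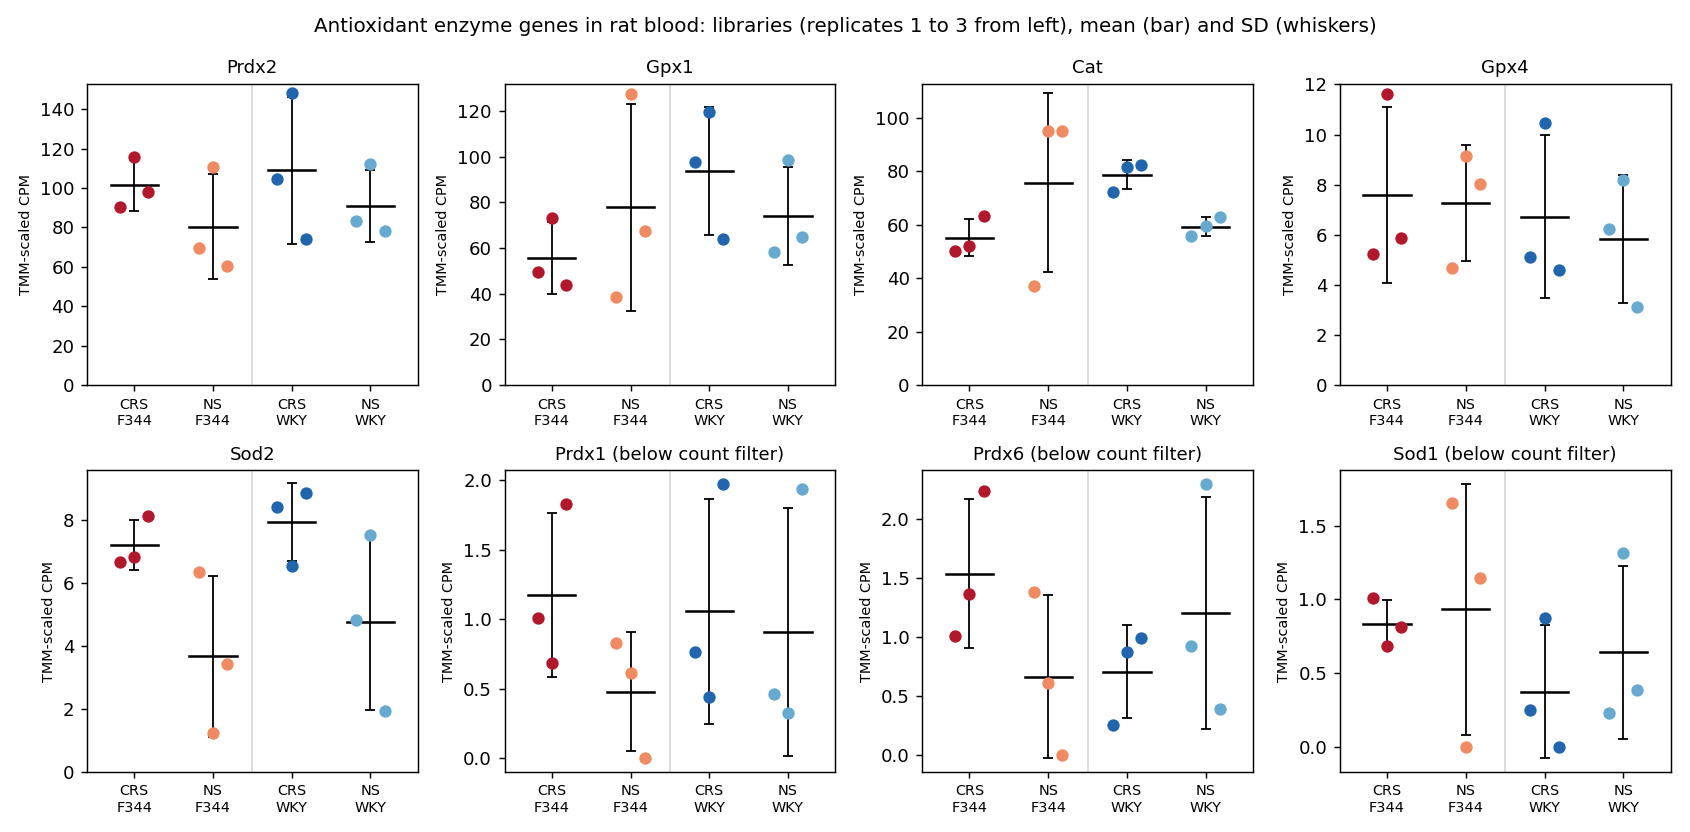
TMM-scaled CPM of the 8 antioxidant enzyme genes (y axes, linear, each with its own range) in the 4 groups (x axes). Points are libraries, bars means and whiskers SD (n = 3); a library at 0 had no count. Cat in unstressed F344 runs from 37.0 to 95.02 CPM and spans every other group, while Sod2 in stressed F344 (6.66 to 8.12 CPM) lies above unstressed F344 (1.22 to 6.34 CPM).

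The counts of Prdx2, Gpx1 and Cat were also set against each other within each library, a ratio that no scaling of the library changes. Gpx1 per Prdx2 count was 0.934, 0.806 and 0.863 in CRS WKY, against 0.548, 0.634 and 0.448 in CRS F344, and these ranges did not overlap. In NS WKY it was 0.704, 0.880 and 0.832, against 0.553, 1.15 and 1.11 in NS F344, where the ranges overlapped. Cat per Prdx2 averaged 0.783 ± 0.289 in CRS WKY and 0.549 ± 0.0973 in CRS F344, and 0.667 ± 0.136 in NS WKY and 0.984 ± 0.530 in NS F344 (SD, n = 3 each). Its highest value, 1.57, belonged to NS F344 replicate 3, the shallowest library, which had 83 Cat and 53 Prdx2 counts. Gpx1 per Cat had nearly equal means in F344, 1.03 ± 0.361 after CRS and 1.03 ± 0.315 without stress, and stood at 1.20 ± 0.367 and 1.25 ± 0.358 in WKY. These ratios were chosen after the values were seen and were not tested.

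**Figure D2:**
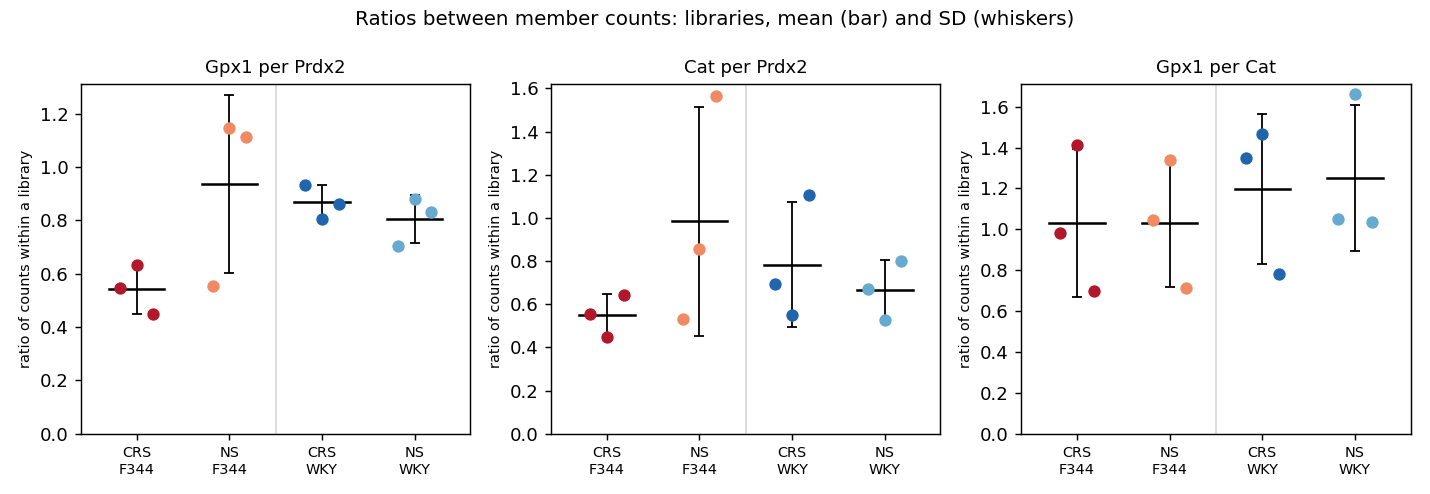
Ratios of counts between Gpx1, Cat and Prdx2 within each library (y axes, linear) in the 4 groups (x axes). Points are libraries, bars means and whiskers SD (n = 3). Gpx1 per Prdx2 lies between 0.806 and 0.934 in stressed WKY and between 0.448 and 0.634 in stressed F344.

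Gpx4, which reduces lipid peroxides in membranes and guards cells against ferroptosis, was measured at 7 to 34 counts per library. It stood at 5.25, 11.6 and 5.88 CPM in CRS F344 and 4.69, 9.14 and 8.01 CPM in NS F344, and at 5.09, 10.5 and 4.60 CPM in CRS WKY and 6.22, 8.19 and 3.10 CPM in NS WKY. All 4 groups overlapped. Averaged over strains the log2 fold change after CRS was 0.12 (SE 0.296, 95% interval -0.48 to 0.72, edgeR adjusted p = 0.977), and the averaged strain difference, WKY over F344, was -0.19 (95% interval -0.79 to 0.42, edgeR adjusted p = 0.847). Without NS F344 replicates 2 and 3 these values were 0.42 and 0.11 (edgeR adjusted p = 0.955 and 0.941). Changes within these 95% intervals were not excluded by these libraries.

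Sod2, the manganese dismutase of mitochondria, showed the largest fold change after CRS, averaged over strains, of the 5 tested genes. It stood at 6.66, 6.83 and 8.12 CPM in CRS F344 and at 6.34, 1.22 and 3.43 CPM in NS F344. Every stressed F344 library lay above every unstressed one, which 6.22% of tested genes also showed. In WKY it stood at 8.41, 6.54 and 8.87 CPM in CRS rats and at 4.84, 7.54 and 1.94 CPM in NS rats, where NS replicate 2 lay above CRS replicate 2. The low unstressed values rested on few reads: 2 and 3 counts in NS F344 replicates 2 and 3 and 5 counts in NS WKY replicate 3.

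Averaged over strains, Sod2 was at log2 0.75 after CRS (SE 0.299, 95% interval 0.14 to 1.35), with an unadjusted edgeR p of 0.0171 and an adjusted p of 0.587, so it did not pass. An unadjusted p under 0.05 was reached by 7.08% of tested genes, and 0.036% passed the adjusted threshold, 0 of them from the antioxidant set. The value was 0.77 within F344 and 0.72 within WKY (edgeR adjusted p = 0.940 and 0.945), and both moved with single libraries. The F344 value was 1.84 without NS replicate 1, 0.42 without NS replicate 2 and 0.25 without NS replicates 2 and 3, and the WKY value was 1.17 without NS replicate 2 and 0.40 without NS replicate 3 (edgeR adjusted p = 0.246 to 0.998). Averaged over strains it was 0.49 without NS F344 replicates 2 and 3 (edgeR adjusted p = 0.939) and 1.28 without NS F344 replicate 1 (adjusted p = 0.174). Between strains Sod2 gave log2 0.18 over both treatments (95% interval -0.43 to 0.79, edgeR adjusted p = 0.857), or -0.09 without NS F344 replicates 2 and 3 (adjusted p = 0.944).

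Marker sums of white cells and platelets moved unevenly beside Sod2. Summed platelet markers were 62.6, 72.0 and 66.4 CPM in CRS F344, against 49.6, 36.5 and 32.0 CPM in NS F344, and 71.6, 114 and 105 CPM in CRS WKY, against 85.0, 76.3 and 35.6 CPM in NS WKY. The 3 libraries with the fewest Sod2 counts were also the 3 with the lowest platelet sums. Neutrophil markers summed to 40.6 to 56.5 CPM in CRS F344 and 32.0 to 59.3 CPM in NS F344, and to 53.2 to 60.5 CPM in CRS WKY and 52.1 to 73.0 CPM in NS WKY. In both strains the neutrophil ranges overlapped. Monocyte sums were 78.2 to 86.4 CPM in CRS F344 and 56.0 to 69.8 CPM in NS F344, and B cell sums 20.2 to 21.5 CPM and 11.4 to 19.9 CPM, so both lay higher in CRS F344 without overlap, as Sod2 did. In WKY the monocyte sums overlapped, at 112 to 159 CPM after CRS and 111 to 128 CPM without stress, and the B cell sums were lower after CRS, at 14.5 to 16.6 CPM against 17.4 to 22.3 CPM. The tables held 9 of 12 platelet, 13 of 13 neutrophil, 8 of 9 monocyte, 6 of 7 B cell and 10 of 10 T cell genes. Up to 2, 7, 3, 1 and 1 of them were at 0 in a library, and their part in the Sod2 values was not tested.

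**Figure D3:**
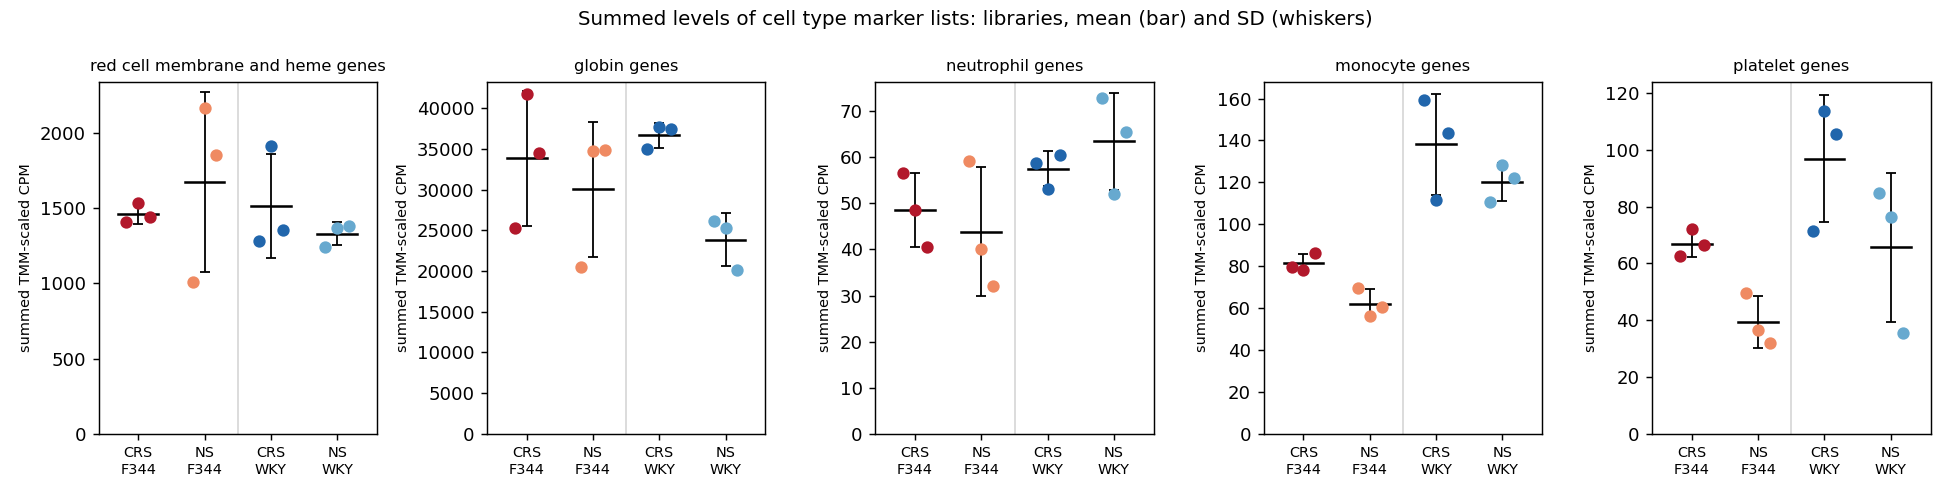
Summed TMM-scaled CPM of 5 cell type marker lists (y axes, linear, each with its own range) in the 4 groups (x axes). Points are libraries, bars means and whiskers SD (n = 3). Red cell sums in unstressed F344 run from 1009 to 2164 CPM, wider than in any other group, and platelet sums in stressed F344 (62.6 to 72.0 CPM) lie above those in unstressed F344 (32.0 to 49.6 CPM).

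Prdx1, a peroxiredoxin of most cell types, had 5, 2 and 9 counts in CRS F344 and 3, 1 and 0 in NS F344, and 3, 1 and 6 in CRS WKY and 2, 1 and 5 in NS WKY. Prdx6, the peroxiredoxin that also has phospholipase activity, had 5, 4 and 11 counts in CRS F344 and 5, 1 and 0 in NS F344, and 1, 2 and 3 in CRS WKY and 4, 7 and 1 in NS WKY. Sod1, the copper and zinc dismutase of the cytosol, had 5, 2 and 4 counts in CRS F344 and 6, 0 and 1 in NS F344, and 1, 2 and 0 in CRS WKY and 1, 4 and 1 in NS WKY. For all 3 genes the count ranges of CRS and NS libraries overlapped in both strains. A count of 0 in NS F344 replicate 3 allows up to 3.43 CPM, a limit that covers counting error only and lies above every level measured for the 3 genes. With 27 to 44 counts in all 12 libraries together, these genes gave no comparison between groups. Whether reads of these genes were set aside as ambiguous cannot be told from the tables, and none of the 3 overlapped another gene of the tables in the GRCr8 annotation.

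The 5 tested genes differed in how tightly they were held. Over all 12 libraries the coefficient of variation of the CPM was 25.7% for Prdx2, 27.2% for Cat, 38.6% for Gpx1, 38.1% for Gpx4 and 42.7% for Sod2. Counting alone would give 6.43%, 7.67% and 7.24% for Prdx2, Cat and Gpx1, so most of their spread came from beyond counting. For Gpx4 and Sod2 counting alone would give 24.0% and 25.9%. Among genes within 2-fold of the same level, 32.7% of 49 varied less than Prdx2, 50.8% of 65 less than Cat and 79.3% of 58 less than Gpx1.

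Likeness of pattern was measured as the root mean square difference of centred log2 CPM over the 12 libraries, among 192 or 193 genes averaging 20 CPM or more, and is given as a description. Cat was closest to Bnip3l, a mitophagy receptor that clears mitochondria from maturing red cells, at 0.19, and to Aqp1, the red cell water channel, at 0.20, against a median of 0.52 over all candidates. Prdx2 was closest to the mitochondrial carrier Slc25a39 (0.25). Gpx1 was closest to Pabpc1, a poly(A)-binding protein gene (0.28), and Cdc25b, a cell cycle phosphatase gene (0.29), Gpx4 to the deacetylase gene Sirt2 (0.25) and RGD1311739 (0.28), and Sod2 to Tsc22d1 (0.32) and the actin gene Actg1 (0.38). Among the antioxidant genes themselves, Prdx2 lay 0.40 from Gpx4 and from Gpx1, and Cat and Gpx1 also 0.40 apart, while Gpx1 and Sod2 lay 1.01 apart. Of the candidates, 28.6% were closer to Prdx2 than Gpx4 was, and 32.8% closer to it than Gpx1 was. For Cat, 26.6% were closer than Gpx1 was, and for Gpx1, 96.9% were closer than Sod2 was. Sod2, on 2 to 40 counts a library, lay at a median of 0.84 from all candidates. All genes share the libraries and their scaling factors, which adds to likeness.

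**Figure D4:**
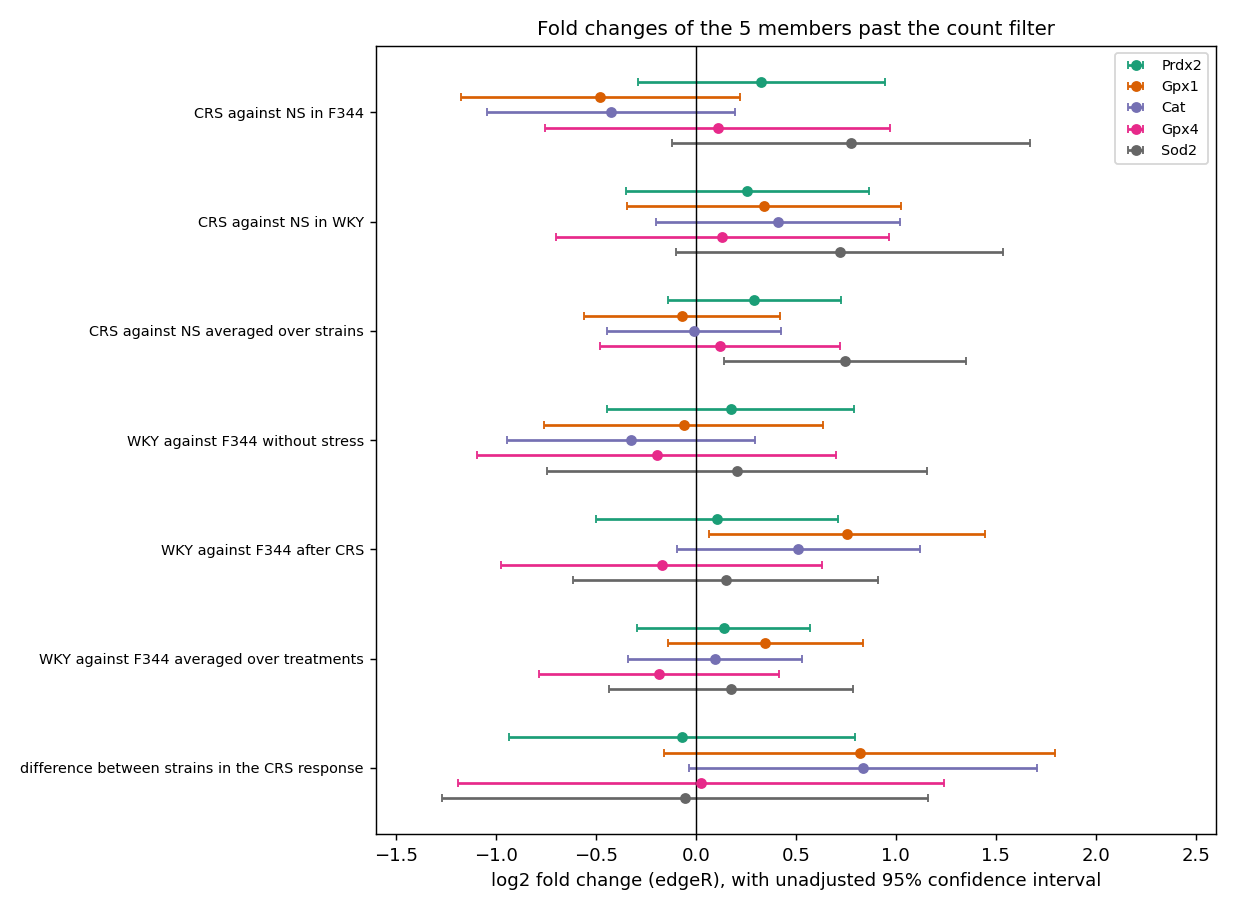
Log2 fold changes from edgeR (x axis) with unadjusted 95% confidence intervals for Prdx2, Gpx1, Cat, Gpx4 and Sod2 in 7 comparisons (y axis, first group named over the second). All intervals include 0 except Sod2 for CRS averaged over strains (0.14 to 1.35) and Gpx1 for WKY against F344 after CRS (0.07 to 1.44), and no adjusted p passed 0.05.

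The wider antioxidant system was read from 4 further lists. Of 34 other antioxidant genes, 33 were in the tables and 9 passed the filter, and in all 7 comparisons 0 of the 9 passed the test. Averaged over strains, 6 of the 9 had positive fold changes after CRS, with a median of log2 0.26, beside a median of 0.003 and 50.3% positive over all tested genes. With the smallest p-values in each direction, none past the threshold, were glutathione reductase Gsr (log2 0.48) and glutaredoxin Glrx (0.66), and on the lower side Gclm, a subunit of the enzyme that starts glutathione synthesis (-0.50), and mitochondrial thioredoxin Txn2 (-0.12). Txn2 changed sign to 0.06 with no low-count filter, 0.03 with limma-voom and 0.22 without NS F344 replicates 2 and 3. Between strains, WKY over F344, 5 of 9 were positive with a median of 0.05. There thioredoxin reductase Txnrd1 was at log2 1.30 (edgeR adjusted p = 0.132) and Gsr at 0.34, and the sestrin gene Sesn3 at -0.45 and the glutaredoxin gene Glrx5 at -0.13, and none passed.

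NADPH feeds the reductases of both the thioredoxin and the glutathione system, and 4 of the 9 listed NADPH genes passed the filter. None of the 4 passed the test in any of the 7 comparisons. Averaged over strains Taldo1, transaldolase of the pentose phosphate pathway, was at log2 0.46 after CRS (edgeR adjusted p = 0.827), while Pgd, phosphogluconate dehydrogenase, was at -0.12, or 0.06 with no filter and 0.03 with limma-voom. Between strains Taldo1 (log2 0.32) and Pgd (-0.01) did not pass, and Pgd was positive under 6 alternatives that left out no single library.

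Of 21 listed genes of the regulator Nrf2 and its targets, 13 passed the filter and 0 passed the test. After CRS, averaged over strains, 8 of 13 were positive with a median of log2 0.10, beside 50.3% positive and a median of 0.003 over all tested genes. Fth1, the ferritin heavy chain that stores iron, was at log2 0.61 (SE 0.213, edgeR adjusted p = 0.495). It stood at 220, 285 and 249 CPM in CRS F344 and 138, 170 and 146 CPM in NS F344, and at 159, 237 and 164 CPM in CRS WKY and 148, 169 and 78.6 CPM in NS WKY. The groups did not overlap in F344, where 6.22% of tested genes lay higher after CRS without overlap, and they overlapped in WKY. Keap1, the inhibitor of Nrf2, was at -0.27. Nfe2l2, the gene of Nrf2 itself, was picked after its values were seen, as the gene of the list with the largest fold change within a strain. It stood at 2.80, 4.36 and 2.96 CPM in CRS WKY and 1.15, 0.655 and 0.774 CPM in NS WKY, without overlap, which 4.93% of tested genes also showed. Nfe2l2 rested there on 2 to 11 counts a library (log2 1.85, SE 0.632, edgeR adjusted p = 0.74). In F344 it was at -0.41, and the difference in response, WKY minus F344, was 2.26 (SE 0.879, edgeR adjusted p = 0.993), so it did not pass. Between strains Fth1 (log2 -0.31) and the ferritin light chain gene Ftl1 (-0.30) did not pass. Ftl1 stood at 472 CPM in CRS WKY replicate 2, against 144 and 106 CPM in the other CRS WKY libraries, and without that library its strain difference was -0.75 and passed (edgeR adjusted p = 0.0422). Ferritin genes have many processed copies, so their counts are uncertain.

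Among 7 tested genes that make oxidants, 7 had positive fold changes after CRS averaged over strains, beside 50.3% of all tested genes, and 0 passed. The median of the 7 was log2 0.17, inside the quartile range of all tested genes (-0.24 to 0.22). Within F344 alone 5 were positive and 2 negative, and within WKY 7 were positive. Xanthine dehydrogenase Xdh (log2 0.55, edgeR adjusted p = 0.555) and the NADPH oxidase subunit Ncf4 (0.49) had the smallest p-values. Between strains 1 of the 7 rose in WKY, where 3.74% of all tested genes passed in either direction and 2.12% passed as higher in WKY. This was Cybb, the membrane subunit of the phagocyte NADPH oxidase that makes superoxide. It stood at 6.62, 6.54 and 5.59 CPM in CRS WKY and 1.82, 2.39 and 1.01 CPM in CRS F344. Without stress it stood at 4.37, 4.92 and 5.81 CPM in WKY and 1.38, 2.44 and 1.144 CPM in F344. The strains did not overlap under either treatment, and after CRS 9.64% of tested genes lay higher in WKY without overlap. The averaged log2 difference was 1.73 (SE 0.332, edgeR adjusted p = 0.000859), and after CRS alone it was 1.88 (adjusted p = 0.0114). Without stress Cybb missed the threshold, at log2 1.57 (SE 0.514, edgeR adjusted p = 0.180).

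The Cybb call after CRS was lost with no low-count filter (log2 1.78, edgeR adjusted p = 0.0895), without CRS F344 replicate 1 (adjusted p = 0.0661) or 3 (adjusted p = 0.152), without CRS WKY replicate 1 (adjusted p = 0.0649), and with the scaling that used no TMM (log2 1.71, adjusted p = 0.0969), while the averaged call held in all 21 alternatives that kept the gene. Summed monocyte markers, 8 of 9 in the tables, were also higher in WKY, at 112 to 159 CPM in CRS WKY against 78.2 to 86.4 CPM in CRS F344. Without stress they were 111 to 128 CPM in WKY against 56.0 to 69.8 CPM in F344. Lyz2 made up most of the mean sums, at 119 CPM in CRS WKY and 61.3 CPM in CRS F344, and 98.4 and 47.8 CPM without stress. Csf1r means were 12.4 and 12.0 CPM after CRS, and 13.9 and 6.41 CPM without stress. Fcgr1a means were 1.93 and 1.91 CPM after CRS, and 2.18 and 4.31 CPM without stress. The part of these markers in the Cybb difference was not tested. Between strains, averaged over treatments, the inducible nitric oxide synthase gene Nos2 was at log2 0.48 and Rac2, a small GTPase gene of blood cells, at -0.06, and neither passed. Rac2 turned to 0.01 with no filter and to 0.03 without NS F344 replicates 2 and 3.

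Promoter sequence, from 250 bases before to 50 after each gene's start in RefSeq (build GRCr8), was on hand for 7 of the 8 genes. It was searched on both strands for the antioxidant response element bound by Nrf2 (TGACNNNGC), a GATA site (AGATAA) and a glucocorticoid element (ACANNNTGT). The first was found in 2 of 7, Sod2 and Prdx1, beside 12.2% of 27457 promoters, and the others in 0 of 7, beside 11.3% and 6.6%. A match is only a run of letters, and a missing one says nothing of the factor. Both promoters that hold a match are shown, on the gene's strand with the match in capitals, as Sod2 had the largest fold change after CRS and Prdx1 almost no counts. The matches read TGACCCTGC and TGACTCAGC on the opposite strand, 35 and 135 bases before the start, and the second also contains an AP-1 motif, TGACTCA.
Sod2 (chr1:50050119-50050418, minus strand): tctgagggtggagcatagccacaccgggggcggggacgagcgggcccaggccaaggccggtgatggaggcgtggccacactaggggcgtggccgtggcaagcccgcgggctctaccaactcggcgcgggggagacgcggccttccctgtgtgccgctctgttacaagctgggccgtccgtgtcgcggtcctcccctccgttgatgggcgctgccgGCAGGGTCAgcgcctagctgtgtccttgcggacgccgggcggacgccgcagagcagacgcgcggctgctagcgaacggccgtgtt
Prdx1 (chr5:135383656-135383955, plus strand): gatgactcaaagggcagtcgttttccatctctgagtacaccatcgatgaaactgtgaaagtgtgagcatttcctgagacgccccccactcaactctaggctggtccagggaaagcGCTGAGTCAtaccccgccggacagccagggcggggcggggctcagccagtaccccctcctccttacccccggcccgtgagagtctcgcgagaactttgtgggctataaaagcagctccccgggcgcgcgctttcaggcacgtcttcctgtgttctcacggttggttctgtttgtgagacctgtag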

How the data were processed

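Whole blood RNA was stabilised in PAXgene tubes and sequenced from Ion Proton libraries, per the labels' protocols. The authors deposited one table of raw read counts per gene for each of 12 libraries. Tools listed without a role are TopHat2 2.1.0, Cufflinks 2.2.1 and cutadapt 1.14, with the build rn6, per the submitters' processing notes. Which program counted reads, and whether by strand, is not stated there. The 5 rows that name no gene took 80.9% to 86.6% of all counts and were left out of library sizes and tests.

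Genes passing edgeR's filterByExpr (minimum count 10) were scaled by TMM and tested with edgeR 4.0.16 quasi-likelihood fits in R 4.3.3 over 4 group means, for 7 comparisons, with Benjamini-Hochberg adjustment over 2781 genes and a threshold of 0.05. Standard errors are the log2 fold change over the square root of F, and 95% intervals are unadjusted. DESeq2 1.42.0, limma 3.58.1 with voom, other filters and scalings, a replicate block and left-out libraries were alternatives. The fit was tested on simulated data. Genes named from each pathway list are those with the smallest p-values in each direction, and some genes that this rule or the likeness rule picks are not reported here. No batch is labelled. The antioxidant genes and all lists were chosen with earlier results of these data known. Promoters come from RefSeq tables (GRCr8).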

Additional observations from a re-analysis of the deposited data

How the results depend on the processing

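Of the 5 tested antioxidant genes, 0 passed the adjusted threshold in any of the 7 comparisons or under any alternative run, and the lowest adjusted p was 0.11 (Gpx1, WKY over F344 averaged, without NS F344 replicates 2 and 3). Of 790 alternative values of their fold changes 702 kept their sign and 88 changed it, and the cause was not tested. In the fit used throughout, the genes called numbered 0 for CRS in F344, 0 for CRS in WKY, 1 for CRS averaged, 19, 36 and 104 for WKY over F344 without stress, after CRS and averaged over treatments, with 0 for the strain difference in response. Leaving out 1 library at a time they ranged from 0 to 5, 0 to 2, 0 to 5, 5 to 45, 18 to 46, 59 to 130 and 0 to 2. With limma-voom and quality weights, the count of called genes was 2 for CRS in F344, 2 for CRS averaged. With no low-count filter, the count of called genes was 5 for CRS in F344, 8 for CRS in WKY, 6 for CRS averaged, 3 for the difference in response. With counts outside the 3 abundant features as library size and no TMM, the count of called genes was 1 for CRS in WKY, 4 for CRS averaged, 12 for WKY over F344 without stress, 61 for WKY over F344 averaged, 3 for the difference in response. With the DESeq2 Wald test, the count of called genes was 3 for CRS averaged. With the replicate number as a block, the count of called genes was 2 for CRS averaged. Without NS F344 replicates 2 and 3, the count of called genes was 0 for CRS averaged, 5 for WKY over F344 without stress, 43 for WKY over F344 averaged, 1 for the difference in response. With the compared groups alone, the count of called genes was 9 for WKY over F344 without stress.

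With limma-voom and quality weights, log2 values changed sign for CRS in F344 (Gpx4 -0.11), and for CRS averaged (Gpx4 -0.045, Txn2 0.033, Pgd 0.029), and for WKY over F344 after CRS (Prdx2 -0.00016), and for WKY over F344 averaged (Pgd 0.095). With no low-count filter, log2 values changed sign for CRS in F344 (Cat 0.017), and for CRS averaged (Cat 0.22, Gpx1 0.14, Txn2 0.064, Pgd 0.062), and for WKY over F344 without stress (Gpx1 0.25, Gpx4 0.054), and for WKY over F344 averaged (Pgd 0.055, Rac2 0.0055), and for the difference in response (Gpx4 -0.31). Without NS F344 replicates 2 and 3, log2 values changed sign for CRS in F344 (Cat 0.64, Gpx1 0.59), and for CRS averaged (Cat 0.54, Gpx1 0.47, Txn2 0.22), and for WKY over F344 averaged (Gpx4 0.11, Sod2 -0.093, Glrx5 0.018, Rac2 0.025). For WKY over F344 without stress, leaving both out took Cat from -0.33 to 0.73, Gpx1 from -0.06 to 0.99, Gpx4 from -0.20 to 0.39 and Sod2 from 0.20 to -0.33. For the difference in response it took Cat from 0.84 to -0.22, Gpx1 from 0.82 to -0.23, Gpx4 from 0.024 to -0.56 and Sod2 from -0.056 to 0.47. With counts outside the 3 abundant features as library size and no TMM, log2 values changed sign for CRS in WKY (Prdx2 -0.098, Gpx1 -0.013, Gpx4 -0.19), and for CRS averaged (Gpx4 -0.0016), and for WKY over F344 without stress (Cat 0.091, Gpx1 0.38, Gpx4 0.057), and for WKY over F344 after CRS (Prdx2 -0.054, Sod2 -0.0060), and for WKY over F344 averaged (Pgd 0.00072), and for the difference in response (Gpx4 -0.37). Without the 3 abundant features, log2 values changed sign for CRS averaged (Cat 0.00085), and for the difference in response (Gpx4 -6.3e-05). With the replicate number as a block, log2 values changed sign for CRS averaged (Cat 0.015), and for WKY over F344 without stress (Gpx1 0.022), and for WKY over F344 averaged (Pgd 0.018). With DESeq2 size factors, log2 values changed sign for WKY over F344 averaged (Pgd 0.012). With the DESeq2 Wald test, log2 values changed sign for WKY over F344 averaged (Pgd 0.014).

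Leaving out 1 library at a time, log2 values with a change of sign ran over these ranges. For CRS in F344 they were Gpx4 -0.27 to 0.40, Gpx1 -0.81 to 0.15. For CRS in WKY they were Gpx4 -0.28 to 0.44, Prdx2 -0.020 to 0.48. For CRS averaged they were Gpx4 -0.072 to 0.30, Cat -0.17 to 0.14, Gpx1 -0.23 to 0.25, Txn2 -0.32 to 0.26, Pgd -0.27 to 0.19. For WKY over F344 without stress they were Gpx1 -0.40 to 0.56, Gpx4 -0.53 to 0.098, Sod2 -0.19 to 1.26. For WKY over F344 after CRS they were Gpx4 -0.58 to 0.23, Prdx2 -0.18 to 0.32. For WKY over F344 averaged they were Cat -0.074 to 0.23, Pgd -0.29 to 0.17, Sod2 -0.014 to 0.71, Rac2 -0.14 to 0.090, Gpx4 -0.38 to 0.019, Glrx5 -0.21 to 0.019. For the difference in response they were Prdx2 -0.38 to 0.13, Gpx4 -0.41 to 0.42, Sod2 -1.11 to 0.35. Deviations of same-numbered libraries of different groups had a median correlation of 0.0348 over 18 pairs (highest 0.204). For 36 pairs with other numbers the median was -0.0149 (highest 0.134). The labels do not say whether replicate numbers pair the libraries, and these low correlations cannot exclude it. With the replicate number as a block 0 of the 5 genes passed. The 8 genes had 206 to 1135 counts per library. Even 2-fold changes lay within some 95% intervals, such as those of Sod2 (-0.12 to 1.67) and Gpx1 (-1.18 to 0.22) for CRS in F344. For Gpx1 counting alone would give a coefficient of variation of 7.24%, against 38.6% measured over the 12 libraries. The scaling without TMM was chosen after seeing the data.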
